A study of Homo sapiens with 11 samples.

Results

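A set of 3203 genomic sites carried SUMO-2/3 in both of the lines compared and the glucocorticoid receptor (GR) in neither. The sites were chosen from the deposited ChIP-seq peak lists themselves: a member is a SUMO-2/3 site of the wild-type line that shares at least 1 bp with a SUMO-2/3 site of the 3KR line and with no GR site of either line. Chromosome 19 and chromosome 6 from 26 to 29 Mb (hg19, by site start) were left out by the same rule. The members made up 28.8% (exact 95% interval 28.0 to 29.7) of the 11106 wild-type SUMO-2/3 sites outside these stretches, of 12109 in all, and 60.2% (58.8 to 61.5) of the 5324 wild-type sites there that the 3KR line shared. Being listed in both lines and lacking GR are therefore properties of the choice and not findings.

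The cells were HEK293, a human embryonic kidney line, into which a transgene had been placed with the Flp-In site-specific recombination system. A wild-type line stably expressed wild-type GR, a 3KR line stably expressed GR3KR, described in the labels as SUMOylation-defective, and a control line (FRT) expressed no transgene. All groups used here had been kept for 72 h in steroid-depleted medium and then treated for 1 h with 100 nM dexamethasone, a synthetic glucocorticoid, so no untreated state enters any comparison. Each of the wild-type and 3KR lines gave biological duplicates for SUMO-2/3 and for GR, and the control line gave 1 GR library. The labels do not state whether duplicates came from separate cultures, whether a line is 1 clone or which promoter drives the transgene. A difference between the lines is therefore one between 2 cell populations.

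SUMO-2 and SUMO-3 are ubiquitin-like proteins, nearly identical in sequence, that are joined to lysines of other proteins, often with the help of PIAS ligases, and removed by SENP proteases. On chromatin they are attached to transcription factors, co-regulators and histones. SUMO has been mapped by others to promoters of active genes and to genes transcribed by RNA polymerase III, tRNA genes above all, which lie in clusters on several human chromosomes, the largest of them on the short arm of chromosome 6. GR is itself a SUMO target, and at its binding sites the SUMO signal can lie on the receptor or on proteins near it; the sites described here lack a listed GR peak. No gene annotation or sequence of the build of these lists (hg19) was used, so the sites are named by position alone, and no statement is made on the genes at them.

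The members ranked above the middle of both lists. Fold enrichment, the authors' ratio of a peak to the peak caller's background, had a median of 13.83 and 19.15 at the members in wild-type libraries 1 and 2, and of 12.12 and 18.32 in 3KR libraries 1 and 2. Ranked by fold in both libraries, the members of the wild-type list had a median percentile of 31.5, counted from the top, against 68.8 for the 3567 wild-type-only sites without GR and 28.1 for the 1941 shared sites with GR in both lines. In the 3KR list the median percentile by fold was 36.4 at the counterparts of the members and 45.8 at those of the shared sites with GR. The order of these classes thus turned by fold. By tags, ranked among the shared sites, it did not. The members stood at 55.0 against 43.6 for sites with GR in the wild-type line, and at 52.6 against 47.1 in the 3KR line. By fold, the highest 10 percent of the wild-type list held 600 members (18.7%, 17.4 to 20.1) and the lowest 10 percent 130 (4.06%). In the highest 10 percent of both lists at once there were 404. These ranks describe the sites that the rule picks, since stronger sites are listed in both lines more often.

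**Figure D1:**
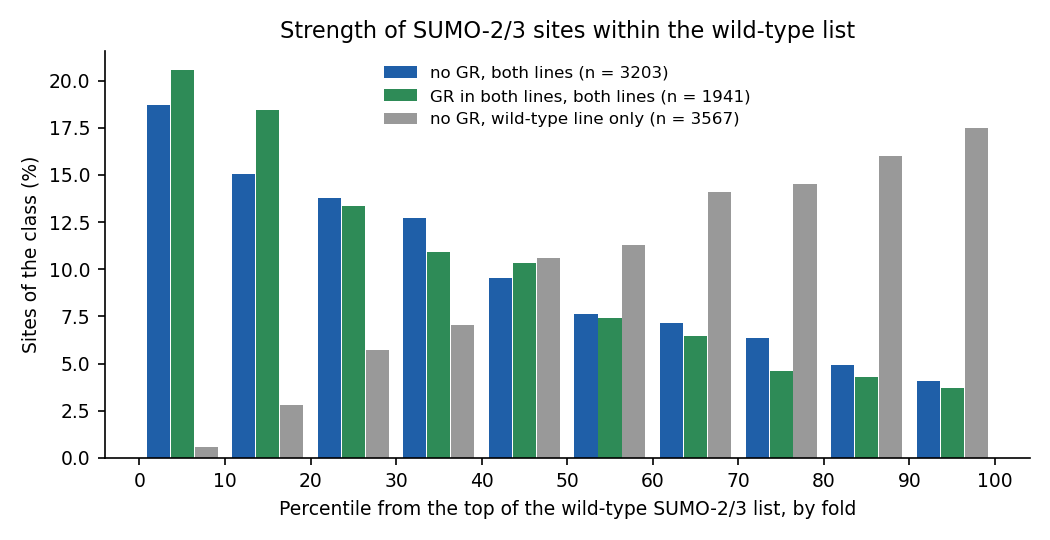
Share of each class of sites (y axis, percent of the class) by percentile from the top of the wild-type SUMO-2/3 list when ranked by fold enrichment (x axis, 10 percentiles to a group of bars). The members (blue) and the shared sites with GR (green) are both concentrated in the upper percentiles, with class medians at 31.5 and 28.1, and the wild-type-only sites without GR (grey) in the lower ones, with a median at 68.8.

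The best ranked member, on chromosome 11 from 75945808 to 75948310, had 697 and 1067 tags in wild-type libraries 1 and 2 and 699 and 966 in the 3KR libraries. Its fold was 56.25 and 63.69 in the wild-type and 70.37 and 69.99 in the 3KR libraries, so that both 3KR values lay above both wild-type values. The next, on chromosome 17 from 19409908 to 19412785, had 614 and 820 tags in the wild-type and 344 and 627 in the 3KR libraries. Here the order of fold was the other way round, with 70.09 and 63.48 in the wild-type against 52.97 and 58.56 in the 3KR line.

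The third and the fourth lay close together on chromosome 16, from 3206487 to 3209503 and from 3231853 to 3234969. The first of this pair had 864 and 1450 wild-type tags and 808 and 1390 3KR tags. The second had 838 and 1086 wild-type tags and 706 and 1060 3KR tags. At both, fold was lower in each wild-type library (54.91 to 57.98) than in each 3KR library (59.28 to 68.26).

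The remaining 6 of the 10 best ranked members lay on chromosome 1 from 17004046, chromosome 2 from 6984901, chromosome 11 from 68227005, chromosome 16 from 685660, chromosome 17 from 29875716 and chromosome 5 from 140097441. The one on chromosome 11 was the only one of the 10 with a GR site within 1 kb, 818 bp away. Fold at these 6 lay between 46.21 and 62.69 in the wild-type and between 49.1 and 65.23 in the 3KR libraries, and the ranges overlapped. All 10 were listed with an FDR of 0 percent in each SUMO-2/3 library. They were wide, 6 of them at least 2 kb, with a median of 2600 bp against 1109 bp over all members. Among the 100 best ranked members 32 were at least 2 kb wide, and chromosome 16 held 12 of the 100 but 187 of all 3203, while chromosomes 6, 10 and 18 held none of the 100 and 118, 173 and 28 of all.

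**Figure D2:**
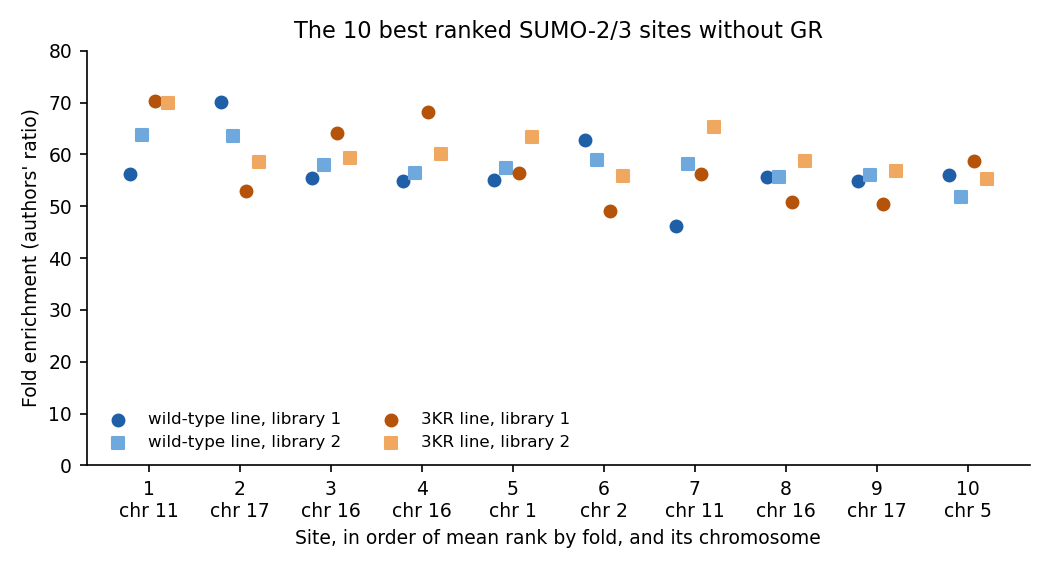
Fold enrichment (y axis, the authors' ratio) of the 10 best ranked members (x axis, with chromosome) in each of the 4 SUMO-2/3 libraries. Points of a line are single libraries, circles for library 1 and squares for library 2, and run from 46.21 to 70.37. The lines change order from site to site.

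Tag counts at the members spanned a wide range in every library. They ran from 51 to 3015 with a median of 150 in wild-type library 1 and from 71 to 4892 with a median of 239 in library 2. In 3KR libraries 1 and 2 they ran from 51 to 3001 with a median of 106 and from 54 to 4240 with a median of 208. Library 2 had more tags than library 1 at 3136 members in the wild-type and at 3166 in the 3KR line, so raw tags follow the library as well as the line. The lower ends of libraries 1 lie at the listing limit, because no listed peak had fewer than 51 tags or a fold under 8.01. Those of libraries 2, at 71 and 54 tags, lie above it. Summed over sites, tags at the members came to 30.5% and 29.8% of the sums over the wild-type lists of libraries 1 and 2. The 3KR sites paired with them held 40.0% and 39.2% of those in the 3KR lists. By number, the members were 3203 of 12109 wild-type sites and the paired sites 3211 of 7784 3KR sites. The larger 3KR share thus goes with a shorter list.

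The order of the members by tags was alike across libraries, and less so by fold. Spearman's rho of tags over the 3203 members, a description over sites that share their libraries and listing limits, was 0.893 between the wild-type and 0.839 between the 3KR duplicates. Between the lines it was 0.753 for libraries 1 and 0.84 for libraries 2. At the 1941 shared sites with GR the corresponding values were 0.885, 0.863, 0.661 and 0.684. By fold, rho in the same order was 0.859, 0.734, 0.632 and 0.704 at the members. It was 0.905, 0.752, 0.493 and 0.573 at the shared sites with GR.

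To compare the lines, tags were put on a log2 scale and centred in each library on its median over all 5324 shared sites. The members were 60.2% of these sites, so their own median is largely set by the scale. On this scale the median log2 ratio of wild-type over 3KR tags at the members was -0.07, with quartiles at -0.35 and 0.21. Before centring, and with depth not adjusted, the median ratio of 3KR over wild-type tags was 0.721 for libraries 1 and 0.875 for libraries 2. The centred ratio stayed within 1.5-fold at 2621 members (81.8%, 80.4 to 83.2). It exceeded 2-fold towards the wild-type line at 47 and towards the 3KR line at 54. No share over all shared sites is given for these limits, so they describe the members alone. Both wild-type values lay above both 3KR values at 634 members (19.8%), where 24.8 percent of all shared sites did so, and below them at 934 (29.2%), where 29.9 percent of all shared sites did. By fold the counts were 594 (18.5%) above, beside 26.9 percent of all shared sites, and 1063 (33.2%) below, beside 30.0 percent. Because the rule used the same contrast, these counts are a description with no test, and 2 libraries against 2 could not give a two-sided exact permutation p under 0.333. Leaving out a library loosens the criterion and raised the counts. They rose to 976 above without wild-type library 2, 1150 without 3KR library 1 and 1022 without 3KR library 2. Below, the count rose to 1529 without 3KR library 2. No share over all shared sites is given for these looser settings, so the raised counts say nothing particular to the members.

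Shared sites with GR in both lines, processed in the same way, had a higher ratio than the members. Their median log2 ratio of tags was 0.04, so the members lay lower by 0.11 (difference -0.11), and both wild-type values lay above both 3KR values at 660 of them (34.0%, 31.9 to 36.2) and below at 584 (30.1%, 28.1 to 32.2). Leaving out 1 library moved the difference from -0.11 to between -0.15 (without 3KR library 2) and -0.07 (without 3KR library 1). With fold in place of tags the median ratio was -0.10 at the members and 0.11 at the sites with GR, a difference of -0.22. The members had the lower median on 17 of 22 chromosomes by tags, on 21 by tags per kb of peak and on 22 by fold. With tags centred on each chromosome's own median the difference was also -0.11. No test of this difference was made, since both classes were chosen by listing in both lines.

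Class medians were also taken library by library. Relative to all shared sites, median log2 fold at the members was 0.00 and -0.01 in wild-type libraries 1 and 2, and 0.06 and 0.08 in 3KR libraries 1 and 2. At the shared sites with GR it was 0.05 and 0.06 in the wild-type and -0.06 and -0.09 in the 3KR libraries. Members were thus the weaker class by fold in both wild-type libraries and the stronger in both 3KR libraries. By tags the members had the lower median in all 4 libraries, by 0.24 and 0.26 in the wild-type line (differences -0.24 and -0.26) and by less in the 3KR line (-0.08 and -0.12). The order of the classes in the 3KR line therefore depended on the measure, while the wild-type minus 3KR change had 1 direction by tags, tags per kb and fold.

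**Figure D3:**
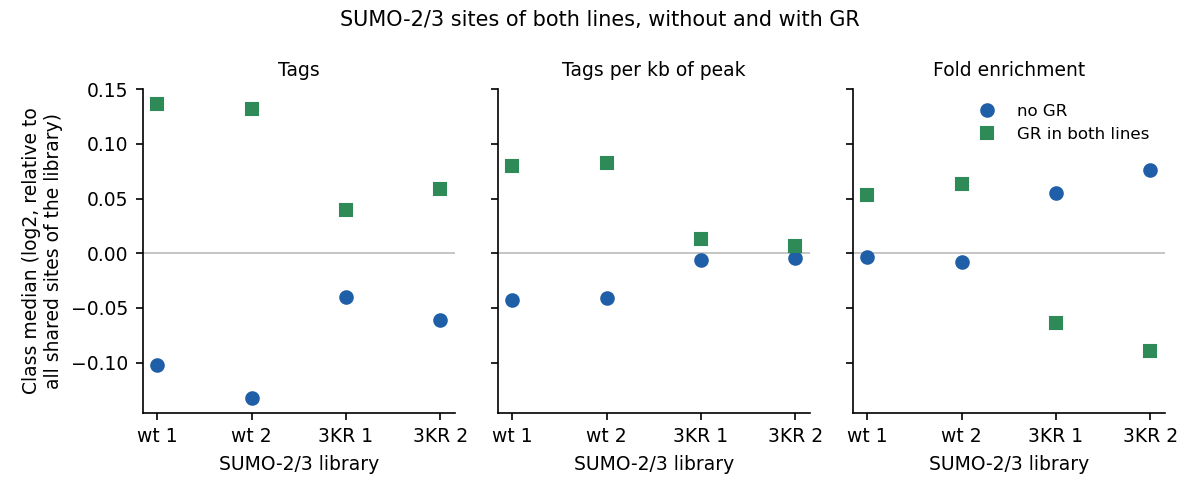
Class medians (y axis, log2 relative to the median of all shared SUMO-2/3 sites in the same library) in the 4 SUMO-2/3 libraries (x axis), by tags, tags per kb of the library's own peak and fold enrichment. Points are medians over 3203 members (blue circles) and 1941 shared sites with GR in both lines (green squares). The classes lie closer together in the 3KR than in the wild-type libraries by tags and by tags per kb, and change order by fold.

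The members with the most unequal tags were mostly sites of unequal width. The highest ratio was on chromosome 21 from 36259555 to 36265508, with 563 and 1007 tags in the wild-type libraries over peaks of 5954 and 6507 bp. Its 3KR peaks had 85 and 208 tags over 1273 and 1426 bp. The log2 ratio was 2.08, and fold was 19.32 and 29.14 against 8.61 and 15.51. On chromosome 14 from 100435910 to 100443434, the wild-type site was 7525 bp wide with 783 and 1394 tags, and the 3KR site was 2008 bp wide with 166 and 248 tags (log2 ratio 1.95). At these 2 members the wild-type values did not overlap the 3KR values by centred tags, whereas fold on chromosome 14, at 9.73 and 20.16 against 10.59 and 10.01, did overlap.

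At the third and the fourth highest ratio, 1 wild-type library had a much longer peak than the other. On chromosome 3 from 9180204, wild-type library 1 had 584 tags over 6564 bp, but library 2 had 218 over 1751 bp, and the 3KR libraries had 64 and 90 tags. Both wild-type values lay above both 3KR values also after centring. On chromosome 21 from 38440221, library 1 had 989 tags over 10734 bp and library 2 had 193 over 1201 bp, against 81 and 124 3KR tags. Both wild-type counts were above both 3KR counts there, but the centred values overlapped. The fifth, on chromosome 20 from 48982461, had 187 and 314 wild-type tags and 54 and 60 3KR tags, near the listing limit in the 3KR line.

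At the other end, a member on chromosome 2 from 175199221 to 175200076 had 75 and 140 tags in the wild-type and 284 and 749 in the 3KR libraries, a log2 ratio of -2.59. The wild-type site was 856 bp wide and the 3KR site 2802 bp, and fold was 10.48 and 15.53 against 13.74 and 24. On chromosome 5 from 142778780 to 142780855 there were 595 and 1584 wild-type and 1900 and 2779 3KR tags (log2 ratio -1.66), and the 3KR site ran on to 142786026. Fold was higher in both 3KR libraries there, at 36.81 and 31.65 against 12.91 and 28.12. Another on chromosome 5, from 180617795, had 287 and 1888 against 1366 and 2270 tags (log2 ratio -1.68). It lay at the end of a group of members described further on. The peaks there were 1477 and 6079 bp long in the wild-type and 5965 and 6676 bp in the 3KR libraries. The size of this ratio thus followed the short peak of wild-type library 1. The members on chromosome 1 from 116915062 and chromosome 10 from 22633467 completed the 5 lowest, with log2 ratios of -1.80 and -1.55. On chromosome 1 there were 100 and 214 wild-type tags, and 117 tags over 1272 bp and 1241 over 6976 bp in 3KR libraries 1 and 2, so that the size of the ratio followed the long peak of 3KR library 2. On chromosome 10 there were 212 and 393 wild-type and 317 and 1261 3KR tags. After centring, both wild-type values lay below both 3KR values at all 5, although the raw counts of the lines overlapped at the chromosome 1 and chromosome 10 sites and at the second of the chromosome 5 sites.

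Sites of the 2 lines covered largely the same bases. The median member was 1109 bp wide in the wild-type list (from 111 to 11521 bp) and 989 bp in its 3KR counterpart, and 2397 members (74.8%, 73.3 to 76.3) were wider in the wild-type list. The stretch common to both made up a median of 0.832 of their joint length, and fell under 0.5 at 171 members. Only 18 members overlapped more than 1 3KR site. At 7 members the 3KR site, which the rule did not examine, reached a GR site. Members at least 2 kb wide numbered 487 (15.2%, 13.98 to 16.5), beside 16.1% of the shared sites with GR and 9.31% of the wild-type-only sites without GR.

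The broadest member by far lay on chromosome 17 from 8020753 to 8032273, 11521 bp in the wild-type list. It held 3015 and 4089 tags in the wild-type and 1628 and 3474 in the 3KR libraries, with fold of 44.23 and 44.01 against 50.05 and 43.26. Its peaks were 11589 and 11521 bp long in the wild-type libraries and 4192 and 10513 bp in the 3KR libraries, so the short 3KR site follows 3KR library 1. The second widest, on chromosome 1 from 225115674 to 225124396 (8723 bp), had a fold of 10.58 and 13.77 in the wild-type and 11.75 and 13.77 in the 3KR libraries. The third to the fifth, on chromosome 17 from 79365640, chromosome 14 from 100435910 and chromosome 15 from 99189258, were 7450 to 7551 bp wide in the wild-type and 2008 to 2887 bp in the 3KR list. At the chromosome 17 and chromosome 15 sites the 3KR width again follows 3KR library 1, with peaks of 2419 and 2887 bp, while the peaks of 3KR library 2 were 10189 and 8892 bp long. On chromosome 14 both 3KR peaks were short, 2284 and 2008 bp. In all, 27 members were at least 5 kb wide in the wild-type list and 21 in the 3KR list.

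Seen from the wild-type list, 3203 of the 6770 sites without GR (47.3%, 46.1 to 48.5) were also listed in the 3KR line and so became members. From the 3KR list, 3227 of 4368 sites without GR (73.9%, 72.5 to 75.2) were listed in the wild-type line. The share rose with fold: of the wild-type sites without GR, 1082 of 1202 (90.02%, 88.2 to 91.7) in the highest quintile of the list were members, 65.2%, 41.4% and 29.8% in the quintiles between, and 287 of 1481 (19.4%, 17.4 to 21.5) in the lowest. It also rose with width, from 36.5% (34.8 to 38.3) of sites under 1000 bp to 58.8% (55.3 to 62.3) of those from 2000 to 5000 bp. Of the 37 widest sites, 5 kb or more, 27 were members.

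Which sites without GR became members differed between chromosomes. On chromosome 18, 28 of 36 wild-type sites without GR (77.8%, 60.8 to 89.9) were also in the 3KR list. On chromosome 20, 74 of 322 (23.0%, 18.5 to 28.0) were. Low shares were also found on chromosomes 14 (30.4%, 26.3 to 34.7), 21 (30.5%), 13 (31.8%) and 3 (32.6%, 28.97 to 36.5), and high ones on chromosomes 6 (66.3%, 58.8 to 73.2), 2 (63.4%) and 5 (61.1%). The intervals of chromosomes 18, 6 and 2 do not overlap those of chromosomes 20, 14 and 3. Counted from the 3KR list the order turned, since 29 of 88 3KR sites without GR on chromosome 18 (33.0%) but 76 of 82 on chromosome 20 (92.7%) were listed in the wild-type line.

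The tags of the members followed the same chromosomes. The median log2 ratio of wild-type over 3KR tags was -0.59 on chromosome 18, -0.45 on chromosome 6 and -0.37 on chromosome 2, and 0.55 on chromosome 21, 0.34 on chromosome 20 and 0.32 on chromosome 14. Each of the 4 pairings of a wild-type with a 3KR library gave chromosome 18 a value between -0.67 and -0.48 and chromosome 20 a value between 0.28 and 0.39, so these 2 chromosomes do not overlap in any pairing. Chromosome 1, with the most members (412, 12.9%), had -0.19, and chromosome 17, with the second most (276, 8.62%), had 0.16. At the shared sites with GR the medians on chromosomes 18, 20 and 14 were -0.60, 0.35 and 0.60. DNA copy number of the lines was not measured in the files used here, and its part in these values was not tested.

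**Figure D4:**
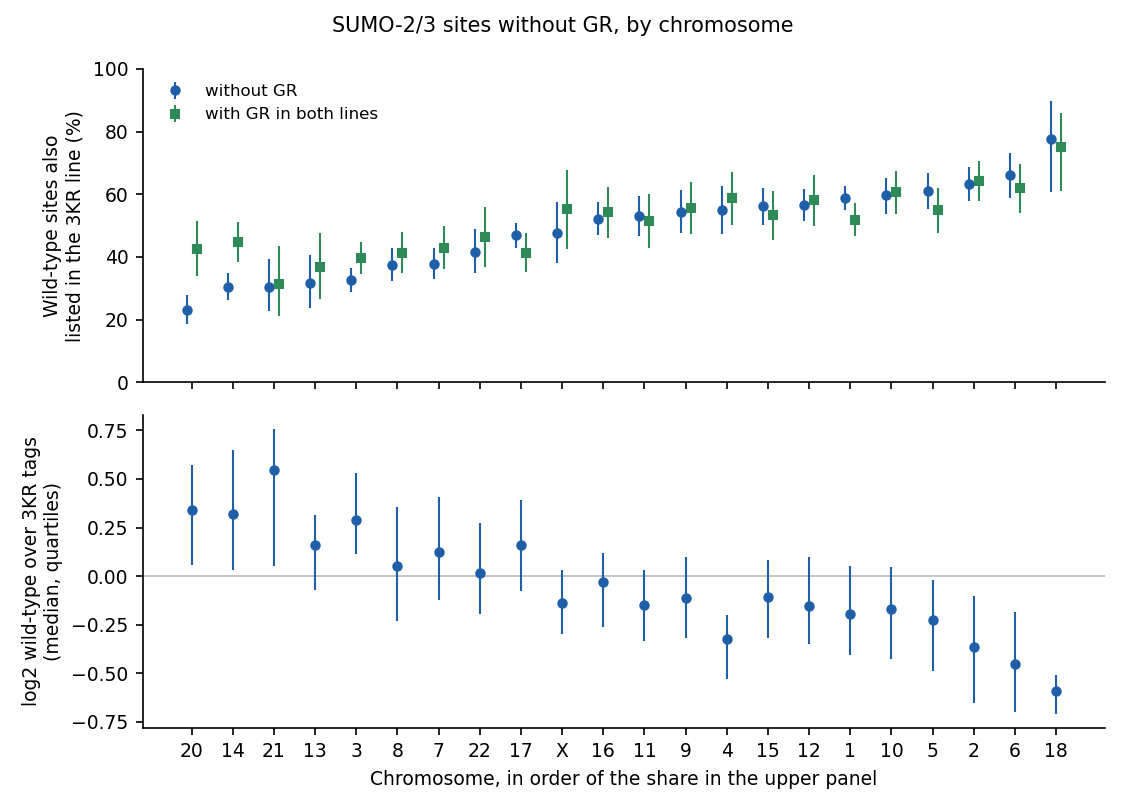
Upper panel: share of wild-type SUMO-2/3 sites also listed in the 3KR line (y axis, percent, with exact 95% intervals over sites), without GR (blue) and with GR in both lines (green), by chromosome (x axis). Lower panel: median log2 ratio of wild-type over 3KR tags at the members, with bars from the 25th to the 75th percentile over sites. Chromosome 20 has the lowest share (23.0%) and a median of 0.34, and chromosome 18 the highest share (77.8%) and a median of -0.59.

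Members were spread over all 22 chromosomes examined, including X, but unevenly within them. Windows of 1 Mb with a member numbered 1380, and 154 of these held at least 5 members and together 1000 of the 3203. The wild-type-only sites without GR were gathered in fewer windows, with 224 of at least 5 sites that held 1677 of 3567, and with 39 windows of at least 10 sites, beside 11 for the members. The fullest window, on chromosome 7 from 149 Mb, held 18 members between 149006782 and 149416764, of 26 wild-type SUMO-2/3 sites and beside 2 GR sites in each line. Its members were strong, with a median percentile of 7.26 in the wild-type list, and even between the lines (median log2 ratio 0.01, from -0.52 to 0.74). In wild-type libraries 1 and 2 their tags lay between 88 and 689 and between 127 and 872. The 3KR libraries had between 52 and 402 and between 88 and 645 tags at these members.

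Chromosome 16 had 2 windows with 17 members each. Those between 3199419 and 3551689 had a median percentile of 3.99 and a median log2 ratio of -0.29, and included the third and the fourth best ranked members. Those between 30043201 and 30935200 were of middle rank (median percentile 26.1, median log2 ratio -0.14). The fourth and the fifth window lay side by side near the end of chromosome 17, with 14 members between 80023102 and 80904095 and 13 between 79075122 and 79931989, and median log2 ratios of 0.10 in each. The former held 16 wild-type and 21 3KR GR sites as well, so a window rich in members was not always poor in GR.

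Members also lay in closer groups. Taking members within 10 kb of each other as a group, 288 members (8.99%) were in groups and 2915 stood alone, beside 14.9% in groups among the shared sites with GR and 10.6% among the wild-type-only sites without GR. The largest group had 6 members on chromosome 16 from 3221456 to 3246587, with no GR site nearer than 18169 bp. On chromosome 5 a group of 5 from 180594034 to 180619271 was followed by a group of 4 from 180630803 to 180651023, with median log2 ratios of -0.57 and -0.35. Groups of 4 also lay on chromosome 14 from 21120306 to 21137650 and on chromosome 5 from 140079307 to 140106528, the latter with the last of the 10 best ranked members. Of the 12 groups of 3 or more, 3 were in the fullest window on chromosome 7, and 1 on chromosome 17 from 8112516 to 8131024 lay in the same megabase as the broadest member.

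Lack of a GR site at a member did not mean that GR was far away. The nearest GR site of either line was a median of 41333 bp from a member, and 72963 bp when only the shorter wild-type GR list was used. It was within 1 kb at 73 members (2.28%, 1.79 to 2.86), within 10 kb at 583 (18.2%, 16.9 to 19.6) and within 100 kb at 2436 (76.1%, 74.5 to 77.5). Wild-type-only sites without GR had a GR site within 10 kb in 21.2% (19.9 to 22.6) of cases and 3KR-only sites without GR in 22.8% (20.4 to 25.3). At 25 members the nearest GR site was more than 1 Mb away. Of the 1380 windows of 1 Mb with a member, 64 held no GR site of either line, and these had 72 members. None of the 3203 members overlapped a GR site of the control line, which allows a share of up to 0.0937% (3 sites of 3203; the exact 95% upper limit is 0.115%), for counting error only; members were chosen to lack GR in the other lines.

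**Figure D5:**
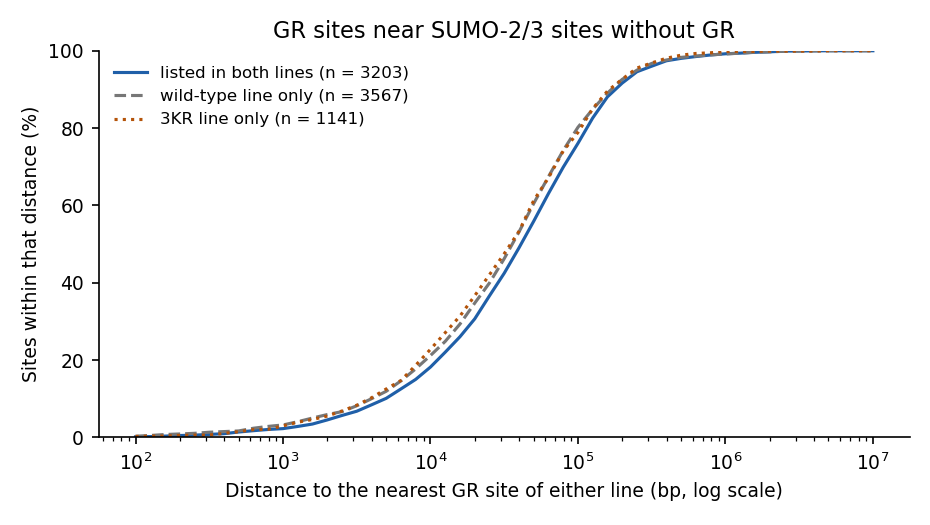
Share of SUMO-2/3 sites without GR (y axis, percent) that have a GR site of the wild-type or 3KR line within the distance on the x axis (bp between nearest edges, log scale). Lines are members (blue), wild-type-only sites (grey, dashed) and 3KR-only sites (orange, dotted). At 10 kb the lines stand at 18.2%, 21.2% and 22.8%.

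Distance to GR went with membership in a small measure. Of the wild-type SUMO-2/3 sites without GR, 73 of 188 (38.8%, 31.8 to 46.2) within 1 kb of a GR site were also in the 3KR list, 44.3% (41.4 to 47.2) of those from 1 to 10 kb, 46.8% (45.3 to 48.4) from 10 to 100 kb and 767 of 1473 (52.1%, 49.5 to 54.6) beyond. The median log2 ratio of tags at the members was -0.05, -0.04, -0.07 and -0.12 in the same order, a narrower range than that over chromosomes.

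At the edge of the rule, the members nearest to a GR site lay 22 bp (chromosome 2 from 38621704 to 38622848), 44 bp (chromosome 15 from 68885678 to 68885788) and 47 bp (chromosome 11 from 14357932 to 14359052) from it. The first had 262 and 239 wild-type and 266 and 419 3KR tags. At the first, the peak of wild-type library 1 was 2261 bp long for a site of 1145 bp. The second was the narrowest member, 111 bp, with 213 and 266 wild-type and 194 and 191 3KR tags. Its tags were counted over longer peaks, of 1250 and 2043 bp in the wild-type and 2612 and 1125 bp in the 3KR libraries. Distances to GR were measured from the site and not from these peaks. Just outside the rule, the shared sites with the least GR overlap were on chromosome 1 from 228912495, chromosome 5 from 114879867 and chromosome 10 from 76583104, with 18, 52 and 111 bp in common with a GR site. The chromosome 1 site had 294 and 337 wild-type and 278 and 459 3KR tags, values in the range of the members beside it.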

How the data were processed

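Peak lists of 9 of the 11 samples were read, and the control line's input and IgG were not analysed here. CASAVA, Bowtie 0.12.9 and the build hg19 are named in the submitters' processing notes; which peak caller was run is not given in the sources used here. The authors deposited for each peak, per the file headers, a tag count (whole tags within that library's peak, not normalized), a fold enrichment (a ratio to background), an FDR in percent, a peak length and a p column, treated as a score and not used. The duplicate libraries of a group share the start and end of every site, so each group has 1 list, and the number of sites has no replicate error. Depth is known only as tags in listed peaks, summed over sites, 1127839 to 3469124 per SUMO-2/3 library. A peak entered at more than 1 site is counted at each.

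Overlap was at least 1 bp; a member's 3KR counterpart was the site with the largest overlap. Log2 tags, tags per kb and fold were centred per library on the median of the 5324 shared sites. Percentiles from the top come from the mean rank by fold of both libraries within 1 list. Shares have exact Clopper-Pearson 95% intervals over sites, which are not replicates, so intervals cover counting error only. Because tags were counted in each library's own peak and the rule used the line contrast, no count model was fitted and no test was made. The members, classes and lists were chosen with earlier results of these data known. Sites named are the 10 best by mean rank, the 5 widest, the 5 highest and 5 lowest tag ratios, the 3 at either edge of the rule and the 5 fullest 1 Mb windows; groups of members were added after the data were seen. Planned results on gene starts, gene lists and motifs were not run, since no hg19 genome or annotation was used here. Code was tested on simulated sites. Python 3.11.15, pandas 2.3.3, scipy 1.17.1 and matplotlib 3.10.9 were used.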

Additional observations from a re-analysis of the deposited data

Results flagged for a closer look

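Fold enrichment at the members against the shared sites with GR in both lines was of opposite sign in the 2 lines. Members minus sites with GR, the difference of class medians in log2 fold was -0.0563 and -0.0713 in wild-type libraries 1 and 2, and 0.119 and 0.165 in 3KR libraries 1 and 2. Every wild-type library thus put the members lower and every 3KR library put them higher; the difference between the lines was not tested, because the rule that chose both classes used the same lists. By tags the sign was the same in all 4 libraries.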

How the results depend on the processing

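The number of members, 3203, stayed within 1.5 times under 5 of 7 alternatives (2813 to 3595). It was 1337 with fold above the list median and 1912 with an FDR of at most 1 percent in both libraries, where fewer sites are eligible. The share of wild-type sites without GR also listed in the 3KR line (47.3%) was 44.6% with reciprocal overlap of 50%, 37.9% with centres within 200 bp, 52.4% above the median fold and 71.4% at the stricter FDR. The members' median percentile of 31.5 was 40.1 by tags, 39.8 at the stricter FDR and 31.6 to 32.8 with a wild-type library left out. The median log2 ratio of tags, -0.07, lay between -0.10 and -0.03 under its 7 alternatives. Members minus sites with GR (-0.11) was -0.22 by fold and -0.15 to -0.07 with a library left out. With a library left out, which leaves fewer values to separate, 870 to 1150 members had wild-type tags above and 1226 to 1529 below the 3KR tags. These counts have no share over all shared sites beside them and are not read as a property of the members. The median distance to GR of 41333 bp was 72963 bp from wild-type GR sites alone, and the median width of 1109 bp was 1229 and 1304 bp by the peak lengths of wild-type libraries 1 and 2. Alternatives for the share, for the difference from sites with GR, for chromosome centring and for counts without a library were added after the data were seen. No paired analysis was possible because no result comes from a test; median centred log2 tags of the members differed between same-numbered libraries by -0.06 (libraries 1) and -0.07 (libraries 2). Alternatives for gene starts and motifs were not run. No GR list holds a site under 51 tags or a fold of 8.01, so weak GR at a member cannot be seen.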

Other observations

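The stretches left out by the rule, chromosome 19 and chromosome 6 from 26 to 29 Mb, held 1003 wild-type SUMO-2/3 sites, of which 392 were listed in both lines without GR. With them the set would have 3595 sites.

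Ranking the members by strength put the strongest and the weakest in opposite order of tag ratio, depending on the line used for ranking. By wild-type fold, the median log2 ratio of wild-type over 3KR tags was 0.05 in the strongest of 5 equal classes and -0.35 in the weakest. By 3KR fold, it was -0.15 in the strongest and 0.05 in the weakest. The tags and the ranks come from the same libraries.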
